A study of Mus musculus with 6 samples.

Results

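The response of MLL1 knockdown cells to osteogenic medium was read from 2 RNA-seq libraries, shMLL1 on day 7 and shMLL1 on day 0. All genes with 20 or more counts in at least 1 of these libraries were taken, which gave 15166 of the 55401 genes in the count table. The cells are C3H10T1/2, a mesenchymal cell line from mouse embryos that can form bone, fat, cartilage or muscle cells in culture, and the shMLL1 line expresses a short hairpin RNA against MLL1, the product of Kmt2a. On day 0 the cells were confluent and untreated. On day 7 they had been kept in osteogenic medium that held dexamethasone (0.1 µM), a phosphate donor (β-glycerophosphate, 20 mM) and vitamin C as its 2-phosphate (100 µg/ml). The line with a control hairpin (shControl, labelled wild type) and the line with a hairpin against NFIB (shNFIB) were sampled on the same days and serve as comparison. There was 1 library for each line and day, so no difference here has a replicate check. Whether a line is 1 clone or a pool, and whether the 6 libraries were prepared together, is not given in the sources used here. Day 7 cells without the medium were not analysed here, so the medium and the days in culture cannot be told apart.

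Dexamethasone acts through the glucocorticoid receptor, ascorbic acid is needed to hydroxylate collagen, and β-glycerophosphate supplies phosphate for mineral. Early osteoblast differentiation is known for withdrawal from the cell cycle, for the transcription factors Runx2, Dlx5 and Osterix, and for a matrix of type I collagen and osteopontin. MLL1 is a histone H3 lysine methyltransferase found at active promoters.

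Counts were scaled by TMM over the 6 libraries and are given as CPM, the count relative to the scaled library total. A gene was called higher or lower when the exact 95% counting interval of its fold change lay wholly past 2-fold. This interval covers counting error only, so a call compares 2 libraries and not the conditions. A response counted as persisted when it was called in the same direction in shControl and in shMLL1. A shControl response counted as lost when it was not called in shMLL1 and the interval of the difference between the lines lay past 2-fold, and the reverse rule defined responses of shMLL1 without the like in shControl. As a yardstick for culture-to-culture spread, an edgeR fit of line and day over all 6 libraries gave a common biological coefficient of variation of 0.281. The SD of a difference between 2 responses is then 0.81 on the log2 scale, and 95% of such differences would lie within 1.59. That estimate includes whatever the hairpins changed.

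Total counts ran from 21608680 in shMLL1 on day 7 to 34774066 in shNFIB on day 0. Mitochondrially encoded genes took 2.65% of shMLL1 counts on day 0 and 5.71% on day 7, and ribosomal protein genes took 8.91% and 4.52%. The latter share was 5.999% and 4.93% in shControl. Leaving both groups out of the scaling moved the median response by -0.06 (log2), whereas scaling by library size alone moved it by 0.21. Kmt2a, the hairpin's target, was at 30.9 and 34.8 CPM in shMLL1, 74.7 and 66.3 CPM in shControl and 86.5 and 94.05 CPM in shNFIB on days 0 and 7. Both shMLL1 libraries were the lowest of the 6. Within shMLL1, Kmt2a did not pass the call between the days, with a log2 fold change of 0.17 (0.04 to 0.31). Nfib was at 65.5 and 72.7 CPM in shMLL1, a log2 fold change of 0.15 (0.06 to 0.24).

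Of the mesenchymal markers, 11 of 12 were measured in shMLL1, with Vim at 1943 CPM on day 0 and 1176 CPM on day 7 and Prrx1 at 668 CPM on day 0 and 634 CPM on day 7. Markers of other cell types were mostly under 20 counts in both libraries, with 7 of 35 measured over the macrophage, endothelial, epithelial, skeletal muscle and neural lists. Their summed level was 39.3 CPM on day 0 and 16.4 CPM on day 7. Ptprc, Cdh5, Epcam, Myog and Sox10, a marker from each list, had at most 3 counts in either library. The macrophage and leukocyte list, with 1 gene measured, summed to 20.9 CPM on day 0 and 1.93 CPM on day 7. That gene and the 1 measured epithelial gene fell, and the measured endothelial and skeletal muscle genes were not called. Of 3 measured neural genes 2 rose and 1 fell. Over all measured genes 16.9% rose and 14.4% fell.

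Between the days, 2567 genes were higher (16.9% of those measured) and 2188 were lower (14.4%) in shMLL1. Rises made up 53.99% of these calls, and 65.1% with scaling by library size alone. The same rule gave 2039 higher (13.5%) and 1586 lower (10.5%) in shControl, and 1251 (8.58%) and 1406 (9.65%) in shNFIB. Protein-coding genes made up 71.7% of the rises and 85.7% of the falls in shMLL1, against 81.7% of all measured genes. Of the rises, 896 had fewer than 20 counts on day 0, and 401 falls had fewer than 20 on day 7. At the count minimum, 113 genes had 20 counts in their higher library, of which 27 were called higher and 2 lower. Just under it, 19 counts, were 127 genes, for which the same interval would have passed in 15 and 9.

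Among protein-coding genes with 20 or more counts on both days, the steepest rises in shMLL1 were of a membrane dipeptidase, secreted matrix and signalling proteins and metabolic enzymes. Dpep1, the dipeptidase (chromosome 8 from 123186242 to 123201812), was at 0.696 CPM on day 0 and 611 CPM on day 7, a log2 fold change of 9.77 (9.17 to 10.47). Sned1, an extracellular matrix protein, was at 12.3 CPM on day 0 and 3792 CPM on day 7 in shMLL1 and at 69.9 and 745 CPM in shControl. The day 7 library of shMLL1 was thus the highest of these 4, and the rise of 8.27 exceeded that in shControl by 4.86 (4.70 to 5.02). Ctla2a, a cathepsin inhibitor, rose from 9.87 to 1766 CPM, less than in shControl by a difference of -4.20 (-5.02 to -3.38). Here the lines differed on day 0, where shControl was at 0.376 CPM, more than on day 7, where it was at 1285 CPM. The retinaldehyde dehydrogenase Aldh1a1 and its close relative Aldh1a7 rose by 6.95 and 6.85. The growth factor Gas6, a ligand of TAM receptors, was at 11.9 CPM on day 0 and 717 CPM on day 7, and the lipocalin Apod at 21.8 CPM on day 0 and 1098 CPM on day 7. Both rose in shControl too, by 4.83 and 5.26. The other genes of the 12 were Fam107a, Serpina3m, Islr, Amy1 and Fmo1, with log2 fold changes between 5.48 and 7.08. All but Islr also passed the call for a rise in shControl.

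Among falls by the same limit, genes of amino acid metabolism stood among the steepest 12. Chac1, a glutathione-degrading enzyme (chromosome 2 from 119351229 to 119354381), was at 112 CPM on day 0 and 0.902 CPM on day 7, a log2 fold change of -6.95 (-7.63 to -6.36). Slc7a5, the large neutral amino acid transporter, was at 471 CPM on day 0 and 8.32 CPM on day 7, and Asns, asparagine synthetase, at 417 CPM on day 0 and 13.8 CPM on day 7. The pseudokinase Trib3, the transsulfuration enzyme Cth and the branched-chain aminotransferase Bcat1 fell by 4.89, 5.84 and 5.53 on the log2 scale. Ankrd1, a nuclear ankyrin-repeat protein and YAP target, was at 192 CPM on day 0 and 1.97 CPM on day 7 in shMLL1 but at 2.32 and 2.36 CPM in shControl. Its level in shMLL1 on day 0 stood far above the other 3 libraries of these lines. Col8a1, Serpinb9b, Gpr141 and Dhrs9 were also among the 12, and of all 12 genes Ankrd1 alone did not also fall in shControl.

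Most of the shControl response was found again in shMLL1. Of the 2039 shControl rises, 1335 (65.5%) persisted, 116 (5.69%) were lost, 13 turned into a fall and the other 575 were intermediate, neither called in shMLL1 nor past 2-fold in the difference. Of the 1586 shControl falls, 1083 (68.3%) persisted, 126 (7.94%) were lost, 4 turned into a rise and 373 were intermediate. Of the 575 intermediate rises, 556 were positive in shMLL1, and of the 373 falls, 366 were negative. Only 394 of the 575 and 327 of the 373 had 20 or more counts in a shMLL1 library. The rest could not be called there whatever their change, and they stay in the totals of 2039 and 1586. Over all 15797 genes measured in either line, the response in shMLL1 was lower than in shControl by more than 2-fold in 630 (3.99%) and higher in 715 (4.53%). In the other direction, 297 rises and 266 falls of shMLL1 had no counterpart in shControl, and a further 931 and 826 were called in shMLL1 alone but did not differ from shControl by the interval rule. The 2 responses share no library. Over the 12559 genes with 20 or more counts in all 4 libraries their Pearson correlation was 0.792 and their Spearman correlation 0.751, across genes, which are not independent. The response was broader in shMLL1, with an SD of 1.25 against 1.04 (log2).

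**Figure D1:**
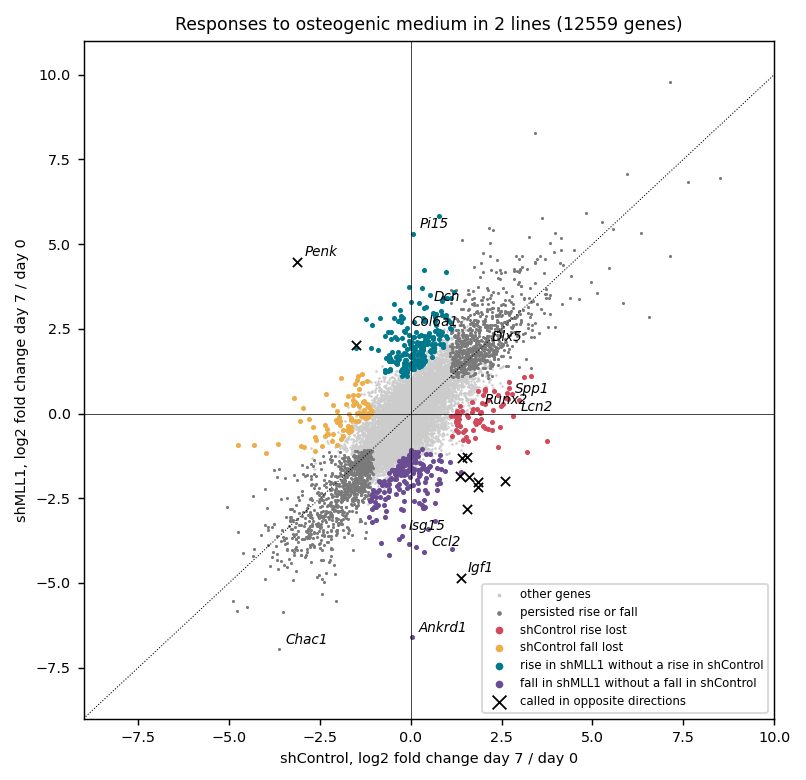
Log2 fold change from day 0 to day 7 in shMLL1 (vertical axis) against shControl (horizontal axis), one point per gene with 20 or more counts in all 4 libraries (12559 genes), coloured by class. Most called genes lie along the dotted line of equal response, Runx2 and Spp1 lie near 0 on the vertical axis, and Igf1 and Penk lie in opposite quadrants.

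Among the persisted responses, 94 of 1335 rises were more than 2-fold larger in shMLL1 by the interval of the difference and 19 were smaller. For the falls these numbers were 78 and 15 of 1083. The median persisted rise was 2.53 in shMLL1 and 2.27 in shControl, and the median fall -2.28 and -1.88. Of these genes, 681 of the rises and 739 of the falls were called in the same direction in shNFIB as well. Of all genes measured in shNFIB, 8.58% were called higher and 9.65% lower.

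Of 20 measured genes listed for the glucocorticoid response, 15 rose and none fell in shMLL1, with a median log2 fold change of 2.37. In shControl 15 rose and 1 fell, with a median of 2.83. Of all measured genes 16.9% rose in shMLL1 and 13.5% in shControl. Fkbp5, a co-chaperone of the receptor, was at 18.8 CPM on day 0 and 414 CPM on day 7 in shMLL1 and at 25.4 and 273 CPM in shControl. Tsc22d3, the leucine zipper protein GILZ, was at 75.3 CPM on day 0 and 1181 CPM on day 7, the kinase Sgk1 at 17.8 CPM on day 0 and 233 CPM on day 7 and pyruvate dehydrogenase kinase Pdk4 at 2.92 CPM on day 0 and 127 CPM on day 7. Tsc22d3 rose more in shMLL1 than in shControl, by 1.123, and so did Errfi1, Fkbp5 and Glul, by 1.28, 1.03 and 1.21. Each of these differences lay within the between-line yardstick of 1.59. Hif3a had 0 counts on day 0 and 2768 on day 7 in shMLL1, at least 1141-fold higher than the floor of 3 counts a library, and was at 0 and 3178 counts in shControl. Zbtb16, a zinc finger factor, had 0 and 154 counts, at least 63.5-fold higher, beside 1296 counts in shControl on day 7. Of the other 5, Dusp1, Ddit4 and Hsd11b1 were not called in either line, and the shControl rise of Lcn2 was lost. Nr3c1, the receptor itself, was at 108 and 74.3 CPM in shMLL1 and at 145 and 44.5 CPM in shControl on days 0 and 7, so that its shControl fall was lost in shMLL1, with a difference of 1.16 (1.04 to 1.28).

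The falls of cell cycle genes persisted too. In shMLL1 37 of 43 S phase genes and 49 of 54 G2/M genes fell and none rose, beside 14.4% of all measured genes. The median log2 fold changes were -2.56 and -3.32 in shMLL1. The proliferation marker Mki67 was at 182 CPM on day 0 and 19.1 CPM on day 7, the mitotic kinase Plk1 at 66.4 CPM on day 0 and 3.77 CPM on day 7 and the replication helicase subunit Mcm5 at 156 CPM on day 0 and 9.84 CPM on day 7. Among the G2/M genes 5 fell more in shMLL1 than in shControl by over 2-fold. Cks1b, a CDK regulatory subunit, was one of them, at 147 and 27.9 CPM in shMLL1 and at 98.1 and 47.1 CPM in shControl on days 0 and 7. Rrm1, the large subunit of ribonucleotide reductase, was the S phase gene whose fall was lost, at 256 and 179.8 CPM in shMLL1. Of the D cyclins, Ccnd1 and Ccnd2 fell by 1.97 and 1.31 on the log2 scale, while the CDK inhibitors Cdkn1a and Cdkn1b, at 0.38 and 0.54, were not called.

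Many promoters of mitotic genes carry a cell cycle homology region, written TTTGAA and read on either strand. It was found within 250 bases upstream of the start in 20 of the 48 measured G2/M genes that had a RefSeq promoter, and in 18.3% of all 27025 genes with one (GRCm38.p6). The 4 with the largest falls are shown as 60 bases, 5′ to 3′ on the gene's strand, with the motif in capitals, to let the spacing from the start be compared. The motif is a match of letters and not a measured site.
Ect2, chr3:27153958-27154017, minus strand: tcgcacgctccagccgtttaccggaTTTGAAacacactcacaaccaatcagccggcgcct
Ube2c, chr2:164769869-164769928, plus strand: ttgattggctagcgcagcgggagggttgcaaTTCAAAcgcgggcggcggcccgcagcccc
Kif11, chr19:37376322-37376381, plus strand: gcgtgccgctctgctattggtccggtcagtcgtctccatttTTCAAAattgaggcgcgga
Cdc20, chr4:118437344-118437403, minus strand: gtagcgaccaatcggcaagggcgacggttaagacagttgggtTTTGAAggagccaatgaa
The motif began 18, 19 and 29 bases before the annotated start in Cdc20, Kif11 and Ube2c, and 114 bases before it in Ect2.

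Of 22 measured genes of sterol synthesis 19 fell in shMLL1 and 20 in shControl, beside 14.4% and 10.5% of all measured genes. The median log2 fold changes were -2.10 and -2.88. Sqle, squalene epoxidase, was at 194 CPM on day 0 and 19.2 CPM on day 7. The lower median in shControl went with higher day 0 levels there: the median gene stood at -0.95 on day 0 and -0.35 on day 7 for shMLL1 over shControl (log2). Hmgcs1 was at 98.6 and 27.9 CPM in shMLL1 and at 426 and 46.2 CPM in shControl on days 0 and 7. Dhcr7 was the exception, at 20.8 and 21.9 CPM in shMLL1 with its shControl fall lost.

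The list of the amino acid response joins targets of the transcription factor ATF4 and cytosolic tRNA synthetases, and 31 of 33 fell in shMLL1, 28 in shControl and 15 in shNFIB, beside 14.4%, 10.5% and 9.65% of all measured genes. The median log2 fold changes were -2.50, -1.53 and -1.03. Atf4 itself was at 956 and 159 CPM in shMLL1 and at 499.98 and 237 CPM in shControl on days 0 and 7. Of serine synthesis, Psat1 was at 1236 and 53.4 CPM in shMLL1 and Psph at 182 CPM on day 0 and 8.73 CPM on day 7. Ddit3, the stress factor CHOP, was at 263 CPM on day 0 and 59.95 CPM on day 7 in shMLL1 and at 87.1 and 67.5 CPM in shControl, a fall without the like in shControl. In all, 7 of these genes had a response more than 2-fold below that of shControl by the interval rule, beside 3.99% of all genes, and Vldlr alone had a response more than 2-fold above that of shControl. Day 0 levels were higher in shMLL1 than in shControl by a median of 0.50, and day 7 levels were at a median of -0.28.

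ATF4 binds composite elements that contain TGATGNAA. On either strand of the 250 upstream bases this was found in 9 of the 25 list members with a promoter, beside 3.91% of all genes. The 4 of them with the largest falls are printed, with the element in capitals, since they hold both orientations.
Chac1, chr2:119351024-119351083, plus strand: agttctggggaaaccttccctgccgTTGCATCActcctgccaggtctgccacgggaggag
Asns, chr6:7693210-7693269, minus strand: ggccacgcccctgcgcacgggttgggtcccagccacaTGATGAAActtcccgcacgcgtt
Atf3, chr1:191183409-191183468, minus strand: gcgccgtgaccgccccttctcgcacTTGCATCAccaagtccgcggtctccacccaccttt
Pycr1, chr11:120643817-120643876, minus strand: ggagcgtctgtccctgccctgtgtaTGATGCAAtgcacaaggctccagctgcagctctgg
Chac1 and Atf3, where the capitals read the other strand of the element, were at log2 fold changes of -6.95 and -4.48, and Asns and Pycr1 at -4.92 and -3.16.

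Of 10 measured osteoblast regulators 3 rose in shMLL1 and 6 in shControl, beside 16.9% and 13.5% of all measured genes. Atf4 fell in both lines, and the median log2 fold change was 0.27 against 1.56. Runx2, the master regulator, was at 32.2 CPM on day 0 and 35.3 CPM on day 7, a log2 fold change of 0.13 in shMLL1, and the shControl rise of 1.83 was lost. Twist2, a bHLH factor, was at 3.05 and 1.84 CPM in shMLL1 and at 6.57 and 22.4 CPM in shControl. Both had similar or lower levels in shMLL1 on day 0 and stood apart on day 7. Cbfb, the Runx partner, rose by 1.58 in shControl and had a log2 fold change of 0.80 in shMLL1, which did not pass the call. Dlx5 and Fhl2 persisted, with rises of 1.97 and 1.92. Zfp521, a zinc finger factor that binds Runx2, rose from 25.7 to 62.2 CPM in shMLL1 and was not called in shControl, at 77.6 and 72.2 CPM. Sp7, Dlx3 and Dlx6 had at most 1 count in either library of shMLL1, where no difference is detectable.

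**Figure D2:**
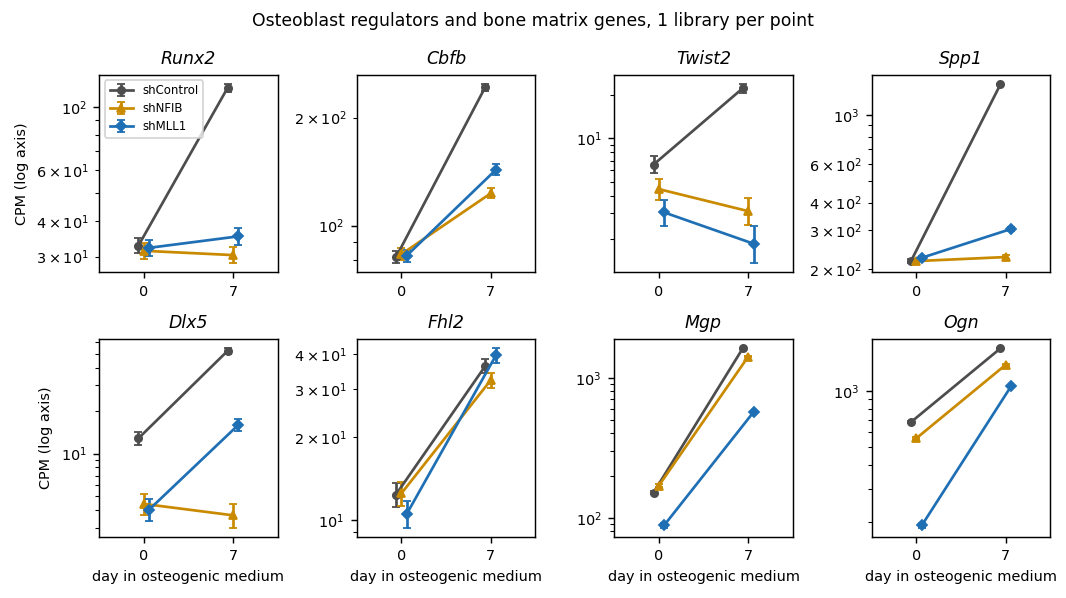
CPM on a log axis on days 0 and 7 for 4 regulators and 4 genes of bone matrix or cofactors, with 1 library per point, lines joining the days of a line and bars for the exact 95% Poisson interval of the count. The grey shControl line climbs away from the other lines for Runx2, Cbfb, Twist2 and Spp1, whereas Fhl2, Mgp and Ogn climb in all 3 lines and Dlx5 climbs in shControl and shMLL1.

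Of 9 measured bone matrix genes 3 rose in shMLL1 and 5 in shControl, where 1 fell, beside rises in 16.9% and 13.5% of all measured genes. By the interval rule 2 responses were above and 1 below that of shControl. Spp1, which encodes osteopontin, was at 224 and 303 CPM in shMLL1 and at 217 and 1381 CPM in shControl on days 0 and 7, a difference of -2.23 (-2.29 to -2.17). Col1a1, a chain of type I collagen, was at 1106 and 1382 CPM in shMLL1 and at 1044 and 2526 CPM in shControl, so the shControl rise of 1.28 had a value of 0.32 in shMLL1, but the difference of -0.95 (-0.98 to -0.93) did not pass 2-fold. Mgp, an inhibitor of calcification, rose by 2.68 in shMLL1 and 3.43 in shControl, and the proteoglycan Ogn by 2.47 and 1.30. Among genes of mineralization Alpl, the alkaline phosphatase, had 0 and 2 counts in shMLL1, under the floor, and 7 and 111 in shControl. The phosphate transporters Slc20a1 and Slc20a2 fell by 1.66 and 1.23 on the log2 scale in shMLL1, whereas Smpd3, a sphingomyelinase, rose by 1.72. Phospho1, a phosphatase of matrix vesicles, was at 4.47 and 1.97 CPM in shMLL1 and at 2.41 and 4.69 CPM in shControl, with no call in either line and a difference between the lines of -2.13 (-2.75 to -1.51).

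Of 24 adipocyte genes 12 were measured in shMLL1, of which 5 rose and 1 fell, beside 16.9% and 14.4% of all measured genes. Of the same 12 genes 6 rose in shControl, and 5 of those rises persisted. Several stood at 0 on day 0 and reached a far higher day 7 level in shControl. Cfd, which encodes adipsin, had 0 and 45 counts in shMLL1, at least 18.6-fold higher, and 0 and 2129 in shControl, at least 744-fold higher. The lipid droplet protein Plin1 had 0 and 28 counts, beside 0 and 472. Both genes counted as persisted, although their day 7 levels lay -5.24 and -3.75 from shControl (log2). Gpd1, a glycerol phosphate dehydrogenase, was at 0.497 and 6.80 CPM in shMLL1 and at 1.002 and 42.7 CPM in shControl, and the lipase Lipe at 6.40 and 21.6 CPM in shMLL1 and at 7.23 and 29.8 CPM in shControl. Retn, Aqp7 and Cox8b had 0 counts in both shMLL1 libraries and 117, 43 and 52 in shControl on day 7. The rises of Cd36, Thrsp and Slc36a2 were lost, with 1, 0 and 1 counts in shMLL1 on day 7. Of 12 measured adipogenic regulators 3 rose and 2 fell in shMLL1, with a median log2 fold change of 0.19, and 2 rose and 2 fell in shControl. Over all measured genes 16.9% rose and 14.4% fell in shMLL1, and 13.5% and 10.5% in shControl. Pparg was at 11.99 and 20.9 CPM in shMLL1 without a call, and Ebf1 and Zfp423 rose by 2.81 and 3.97 in shMLL1 from lower day 0 levels. Ebf1 was at 10.3 and 72.4 CPM in shMLL1 and at 72.6 and 91.7 CPM in shControl on days 0 and 7. In bulk RNA, fewer cells of a type and less RNA per cell cannot be told apart.

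Over all genes, 98 of the 116 lost rises and 106 of the 126 lost falls had 20 or more counts in a shMLL1 library. Of all 116 and 126, the differences exceeded the between-line yardstick in 97 and 85. The classes already ask for a large difference and the yardstick came from the same libraries, so these numbers are no separate support. In shNFIB 42 of the 116 lost rises and 66 of the 126 lost falls were called in the shControl direction. For the persisted responses these numbers were 681 of 1335 and 739 of 1083. Of all genes measured in shNFIB, 8.58% were called higher and 9.65% lower. Lost rises were ranked by the difference among protein-coding genes with 20 or more counts in both shControl libraries. The first 10 included a chemokine, an atypical chemokine receptor and acute-phase proteins. Ccl9, the chemokine, was at 193 and 146 CPM in shMLL1 and at 42.6 and 236 CPM in shControl on days 0 and 7. Ccrl2, the receptor, was at 2.09 and 0.943 CPM in shMLL1 and at 1.44 and 13.2 CPM in shControl. In both genes the shMLL1 level on day 0 was above that of shControl and on day 7 below it. Lcn2, the lipocalin, was at 81.9 and 77.5 CPM in shMLL1 and at 15.3 and 108 CPM in shControl, and serum amyloid Saa3 at 17.4 and 8.81 CPM in shMLL1 and at 0.720 and 3.81 CPM in shControl. Gabbr1, a subunit of the GABA type B receptor, rose in shControl from 35.3 to 279 CPM and was at 15.1 and 19.998 CPM in shMLL1. Iqgap2, a scaffold protein, was at 0.497 and 1.39 CPM in shMLL1 and at 4.85 and 117 CPM in shControl. Kctd19, Shroom3, Kng2 and the cannabinoid receptor Cnr1 completed the 10, with differences between -4.51 and -2.59.

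Falls that were lost included matrix and signalling genes. The potassium channel Kcnj2 was at 25.6 and 13.4 CPM in shMLL1 and at 69.1 and 2.56 CPM in shControl on days 0 and 7, a difference of 3.82 (3.44 to 4.19). Fbn2, a fibrillin of microfibrils, was at 15.8 and 23.4 CPM in shMLL1 and at 120.2 and 23.7 CPM in shControl, and the semaphorin Sema3c at 234 and 200.02 CPM in shMLL1 and at 149.8 and 18.2 CPM in shControl. In Sema3c the lines were within 2-fold on day 0 and apart on day 7, whereas Fbn2 was much lower in shMLL1 on day 0 and close on day 7. Sfrp2, a secreted Wnt modulator, was at 0.497 and 1.19 CPM in shMLL1 and at 21.4 and 4.36 CPM in shControl, and Tagln, an actin-binding protein of smooth muscle, at 0.398 and 0.574 CPM in shMLL1 and at 3.60 and 0.722 CPM in shControl. Igsf10 and Cit fell in shControl by 4.32 and 3.20 on the log2 scale and were at -0.93 and 0.47 in shMLL1. The others of the 10 were Cldn19, Jag2 and Panx3, each with fewer than 30 counts in both shMLL1 libraries. Fn1, fibronectin, an abundant matrix protein, was also among the lost falls, at 2647 and 1339.8 CPM in shMLL1 and at 5684 and 747 CPM in shControl. Its log2 fold change of -0.98 in shMLL1 lay just short of the call, which it passed with DESeq2 size factors.

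Of 11 measured small leucine-rich proteoglycans, which bind collagen fibrils, 8 rose in shMLL1 and 2 in shControl, beside 16.9% and 13.5% of all measured genes. The median log2 fold change was 2.41 in shMLL1, 0.09 in shControl and -0.47 in shNFIB, and 10 of the 11 were above shControl by the interval rule, beside 4.53% of all genes. Dcn, decorin, was at 119 CPM on day 0 and 1052 CPM on day 7 in shMLL1 and at 41.3 and 55.8 CPM in shControl, a difference of 2.71 (2.60 to 2.83). Lum, lumican, was at 0.497 and 154 CPM in shMLL1 and at 0.657 and 16.5 CPM in shControl, and asporin Aspn at 121 and 643 CPM in shMLL1 and at 657 and 591 CPM in shControl. For Dcn and Lum the shMLL1 library of day 7 was the highest of the 6, and for Aspn the 2 lines were close on day 7 from a lower start in shMLL1. Kera, keratocan, had 0 and 585 counts, at least 241-fold higher, and 1 and 18 in shControl. Bgn, biglycan, was not called, at -0.27.

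Of 22 collagen chains 6 rose and 2 fell in shMLL1, beside 16.9% and 14.4% of all measured genes, and in shControl 2 rose and 8 fell, beside 13.5% and 10.5%. The other 14 were not called in shMLL1. The response was more than 2-fold above that of shControl in 11 and below it in 1, beside 4.53% and 3.99% of all genes. The type VI chain Col6a1 was at 199.97 and 1083 CPM in shMLL1 and at 926 and 821 CPM in shControl on days 0 and 7, and Col6a2 at 119 and 637 CPM in shMLL1 and at 691 and 445 CPM in shControl. For both genes the shMLL1 library was the lowest of the 6 on day 0, and on day 7 it was above the other lines. Col4a6, Col15a1 and Col5a3 rose by 4.64, 2.72 and 1.84, without the like in shControl. The shControl falls of Col3a1, Col5a1, Col4a5, Col11a1 and Col16a1 were lost, with log2 fold changes from -0.67 to 0.08 in shMLL1. Col18a1 fell by 1.20 on the log2 scale in shMLL1 and was at 0.42 in shControl.

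Of 20 matrix proteases and inhibitors 12 rose and 4 fell in shMLL1, and 8 rose and 4 fell in shControl. Of all measured genes 16.9% rose and 14.4% fell in shMLL1, and 13.5% and 10.5% in shControl. Adamts1, an aggrecanase, was at 257 and 1493 CPM in shMLL1 and at 368 and 345 CPM in shControl on days 0 and 7, a difference of 2.63 (2.58 to 2.68). Mmp2, gelatinase A, was at 214 and 1387 CPM in shMLL1 and at 268 and 872 CPM in shControl, and Adamts9 at 9.54 and 87.2 CPM in shMLL1 and at 7.04 and 23.6 CPM in shControl. All 3 were above shControl on day 7 in shMLL1. The inhibitors Timp1 and Timp3 fell by 1.85 and 1.34 on the log2 scale in shMLL1. Mmp13, collagenase 3, was at 4.37 and 0.615 CPM in shMLL1 and at 0.157 and 0.426 CPM in shControl. It fell in shMLL1, and in shControl it was under 20 counts in both libraries, so no call was possible there. Among enzymes of collagen folding and crosslinking, 2 rose and 4 fell of 21 in shMLL1, shares near those over all measured genes. The procollagen proteinase Bmp1 rose by 2.15 and Adamts2 by 1.46, whereas the lysyl oxidases Loxl4 and Lox fell by 3.07 and 1.10 on the log2 scale, as they did in shControl.

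**Figure D3:**
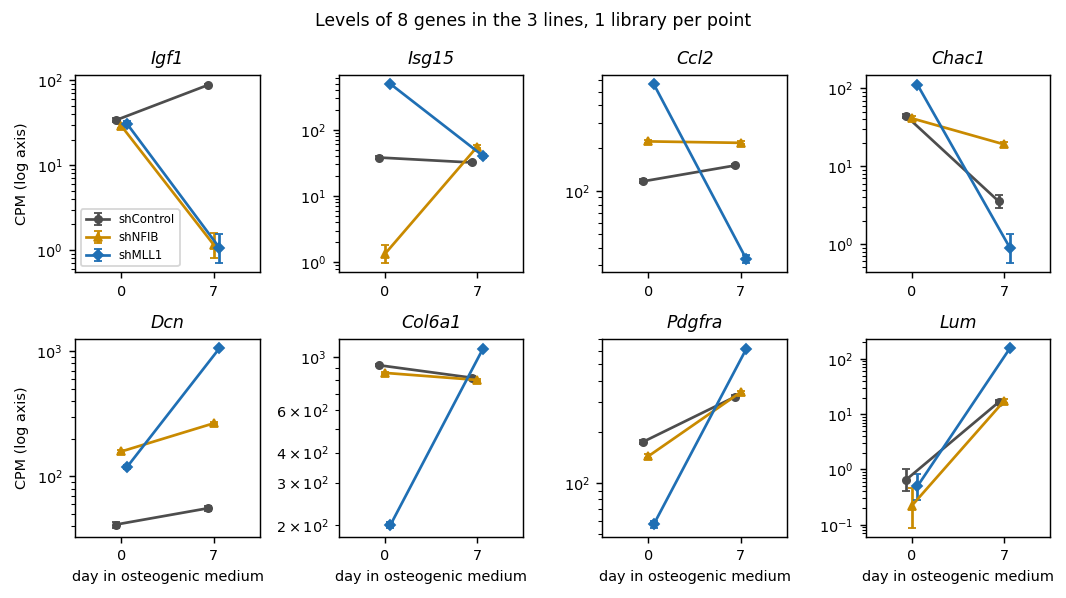
CPM on a log axis on days 0 and 7 for 8 genes, with 1 library per point and bars for the exact 95% Poisson interval of the count. In shMLL1 Isg15, Ccl2 and Chac1 start above the other lines and fall, Dcn, Col6a1, Pdgfra and Lum end above them, and Igf1 falls in both knockdown lines while it rises in shControl.

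Of 29 interferon-stimulated genes 19 fell and none rose in shMLL1, 3 fell and 4 rose in shControl, and 25 rose in shNFIB. Over all measured genes 14.4% fell in shMLL1, 10.5% fell and 13.5% rose in shControl, and 8.58% rose in shNFIB, so the shControl counts were near those over all genes. The median log2 fold changes were -1.51, 0.22 and 3.94. Isg15, a ubiquitin-like modifier, was at 492 and 40.6 CPM in shMLL1, 38.1 and 32.05 CPM in shControl and 1.33 and 55.6 CPM in shNFIB on days 0 and 7. The day 0 library of shMLL1 was thus the highest and that of shNFIB the lowest, and all 3 lines were closer on day 7. Irf7, a transcription factor of the pathway, was at 101 and 23.8 CPM in shMLL1 and at 17.5 and 28.9 CPM in shControl, Bst2, tetherin, at 423 and 71.8 CPM in shMLL1 and at 69.3 and 89.98 CPM in shControl, and Ifi44 at 295 and 47.04 CPM in shMLL1 and at 18.6 and 29.3 CPM in shControl. For the whole list the median of shMLL1 over shControl was 1.66 on day 0 and 0.00 on day 7 (log2). The summed level was 3954 and 1256 CPM in shMLL1, and 1175 and 1186 CPM in shControl. Oas2, Mx1 and Psmb8 rose in shControl and those rises were lost, whereas Mx2 was called in opposite directions. Ifit3 and Ifit3b, the Oas genes and the Mx genes are close relatives, and their counts are uncertain to that extent.

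The element bound by the interferon-activated complex ISGF3 contains GAAA repeated after any 2 bases. It was found on either strand upstream of 11 of the 22 list members with a promoter, and in 3.46% of all genes. The promoters of the 4 such genes that fell most in shMLL1 are given with the element, and any overlapping copy, in capitals.
Cxcl10, chr5:92349068-92349127, minus strand: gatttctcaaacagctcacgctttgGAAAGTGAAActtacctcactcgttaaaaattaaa
Isg15, chr4:156200850-156200909, minus strand: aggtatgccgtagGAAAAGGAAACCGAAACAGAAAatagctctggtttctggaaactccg
Oas1a, chr5:120907526-120907585, minus strand: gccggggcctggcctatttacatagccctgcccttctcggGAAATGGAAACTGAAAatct
Bst2, chr8:71537562-71537621, minus strand: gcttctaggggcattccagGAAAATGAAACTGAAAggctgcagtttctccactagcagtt
Isg15 holds 3 overlapping copies in these bases, Oas1a and Bst2 hold 2, and Cxcl10 holds 1.

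In shMLL1 11 of 17 chemokines and cytokines fell and 3 rose, with a median of -2.94, and in shControl 4 fell and 2 rose, with a median of 0.15. Falls made up 14.4% and 10.5% of all measured genes in these lines. Ccl2, which attracts monocytes, was at 561 and 33.2 CPM in shMLL1 and at 117 and 151 CPM in shControl on days 0 and 7, Ccl7 at 616 and 67.8 CPM in shMLL1 and at 75.7 and 119.7 CPM in shControl, and Cxcl1 at 316 and 20.4 CPM in shMLL1 and at 104 and 116 CPM in shControl. In each of them shMLL1 was the highest of these 4 libraries on day 0 and the lowest on day 7. Il6 had 352 and 4 counts in shMLL1 and 45 and 12 in shControl. Cxcl12, the stromal chemokine, rose alike in both, by 2.44 and 2.40, and Il1rn, the interleukin 1 receptor antagonist, rose by 1.94 in shMLL1 from 174 CPM, whereas it was at 2022 and 2125 CPM in shControl. Ptprc, the pan-leukocyte marker, had 3 and 0 counts in shMLL1, and the 1 measured macrophage and leukocyte marker had a log2 fold change of -4.95.

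Of 20 genes of glycolysis and the hypoxia response 15 fell in shMLL1 and 8 in shControl, beside 14.4% and 10.5% of all measured genes, with medians of -1.75 and -0.55. By the interval rule 10 responses were lower than in shControl, beside 3.99% of all genes. Slc2a1, the glucose transporter GLUT1, was at 81.8 and 19.7 CPM in shMLL1 and at 39.2 and 35.7 CPM in shControl on days 0 and 7. Hk2, hexokinase 2, was at 55.9 and 17.9 CPM in shMLL1 and at 17.6 and 21.3 CPM in shControl, and Aldoa, aldolase, at 948 and 297 CPM in shMLL1 and at 682 and 579 CPM in shControl. These genes stood higher in shMLL1 on day 0 and lower on day 7. Ldha and Pkm fell in both lines, by 2.91 and 2.54 on the log2 scale in shMLL1. The shControl rise of Vegfa, the angiogenic factor, was lost, at 182 and 178 CPM in shMLL1 and at 89.8 and 213 CPM in shControl. Gapdh has many processed copies in the genome, and its count is uncertain.

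Of the targets of the antioxidant factor NRF2, in shMLL1 2 of 14 rose and 5 fell, in shControl 4 rose and 1 fell, and in shNFIB 8 rose. Over all measured genes 16.9% rose and 14.4% fell in shMLL1, 13.5% and 10.5% in shControl, and 8.58% rose in shNFIB. Hmox1, heme oxygenase, was at 100.03 and 79.2 CPM in shMLL1 and at 79.1 and 192 CPM in shControl on days 0 and 7, a rise that was lost. Txnrd1, thioredoxin reductase, was at 221 and 85.4 CPM in shMLL1 and at 176 and 191 CPM in shControl, and Slc7a11, the cystine transporter, fell by 3.34 on the log2 scale in shMLL1 and 1.76 in shControl. Cat, catalase, went the other way and rose by 2.05 in shMLL1, at 0.43 in shControl.

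Of the genes called in opposite directions in shMLL1 and shControl, 13 fell and 4 rose in shMLL1. Igf1, insulin-like growth factor 1 (chromosome 10 from 87858265 to 87937042), was at 30.8 and 1.07 CPM in shMLL1, 33.9 and 88.3 CPM in shControl and 28.9 and 1.15 CPM in shNFIB on days 0 and 7. All 3 lines were close on day 0, and on day 7 both knockdown lines were below their day 0 level while shControl was above it. Igfbp4 and Igfbp5, binding proteins, rose in shControl by 1.72 and 2.04 and those rises were lost, at -0.50 and 0.29. Irs1, an adaptor of the receptor, fell by 1.85 on the log2 scale in shControl, a fall that was lost. Penk, proenkephalin, was at 3.05 and 68.1 CPM in shMLL1 and at 12.6 and 1.44 CPM in shControl. Spry1, a feedback inhibitor of receptor tyrosine kinases, was at 17.2 and 4.30 CPM in shMLL1 and at 3.19 and 19.4 CPM in shControl, and Oas3, an interferon-stimulated gene, at 24.4 and 1.72 CPM in shMLL1 and at 0.376 and 2.72 CPM in shControl. Cldn1, a claudin, and Arhgap20 rose in shMLL1 and fell in shControl, and Cnmd, chondromodulin, had 1 and 33 counts in shMLL1 and 209 and 49 in shControl. Gm4767, Gm5456 and 4930471E19Rik completed the set by the rule and had at most 124 counts in any of these 4 libraries.

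Among protein-coding genes with 20 or more counts in both shMLL1 libraries, Pi15 led the rises without the like in shControl. Pi15, a secreted protease inhibitor, was at 1.42 and 56.3 CPM in shMLL1 and at 14.96 and 15.6 CPM in shControl on days 0 and 7. Islr, a leucine-rich repeat protein of mesenchymal cells, was at 0.961 and 54.4 CPM in shMLL1 and at 137 and 234 CPM in shControl, and Clec3b, tetranectin, at 8.68 and 164 CPM in shMLL1 and at 63.99 and 83.02 CPM in shControl. In Islr and Clec3b the shMLL1 library of day 0 was far below shControl, whereas Pi15 also ended above it. Megf9 was at 11.9 and 159 CPM in shMLL1 and at 31.6 and 30.4 CPM in shControl. Lrrc4c, Aff2, Serpina3c, Ppp1r1b, Csmd1 and Arl4d were the others of the 10, with log2 fold changes between 2.61 and 3.99 in shMLL1. The platelet-derived growth factor receptors Pdgfra and Pdgfrb, markers of mesenchymal cells, rose by 3.42 and 1.54, against 0.88 and 0.22 in shControl. They were the only 2 of the 11 measured mesenchymal markers that rose in shMLL1. Of that list 2 fell and 7 were not called, with a median of -0.72. Over all measured genes 16.9% rose and 14.4% fell. Among falls without the like, beyond those already named, Zbp1, Phf11b and Trim30d, all known as interferon-inducible, fell by 3.41, 3.85 and 3.69 on the log2 scale. The phosphatase Dusp4 was at 34.8 and 1.93 CPM in shMLL1 and at 7.95 and 5.25 CPM in shControl, and Gm2004 was at 19.7 and 1.23 CPM in shMLL1 and at 3.76 and 8.27 CPM in shControl.

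The difference between 2 responses is the gap between the lines on day 7 minus the gap on day 0, and both gaps were read for each class. Of the 266 falls of shMLL1 without the like, 152 were more than 2-fold above shControl on day 0 by the counting interval and 34 more than 2-fold below it on day 7. Of the 297 rises without the like, 137 were below shControl on day 0 and 75 above it on day 7. For the 116 lost rises, 48 were above on day 0 and 38 below on day 7, and for the 126 lost falls, 57 were below on day 0 and 34 above on day 7. The larger of the 2 gaps was that of day 0 in 190, 200, 72 and 69 genes of these classes. Over all measured genes, 702 were above and 605 below shControl by that rule on day 0, and 466 and 331 on day 7. The classes were defined by the difference itself, so these numbers describe where it lay.

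**Figure D4:**
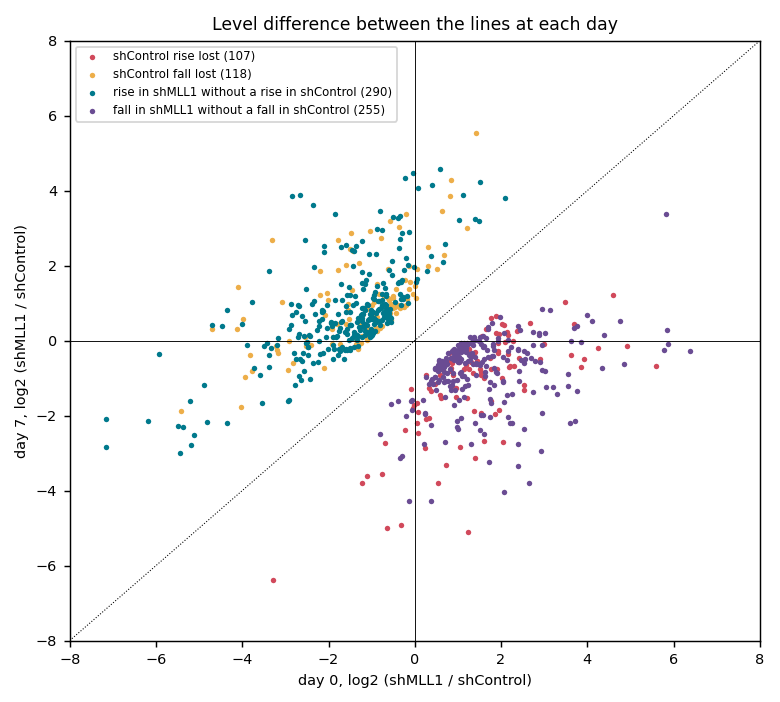
Log2 ratio of shMLL1 to shControl on day 7 (vertical axis) against day 0 (horizontal axis) for genes of the 4 classes with at least 1 count in all 4 libraries, one point per gene. Falls and rises of shMLL1 without the like in shControl spread further along the day 0 axis than along the day 7 axis (the day 0 gap was the larger one in 190 of 266 such falls and 200 of 297 rises).

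Of the remaining lists, 15 of 45 Hox genes and cofactors were measured, and 6 rose in shMLL1 against 3 in shControl, beside 16.9% and 13.5% of all measured genes. By the interval rule 1 response was above that of shControl. All the measured Hox genes were of the HoxA cluster. Hoxa9 was at 0.696 and 3.65 CPM in shMLL1 and Meis3, a cofactor, at 4.57 and 34.5 CPM in shMLL1 on days 0 and 7, and both rose in shControl too. Of the MLL and NFI families 3 of 21 genes rose, namely Kmt2c and Kmt2d, which encode other methyltransferases of the family, and Nfia, a share below that over all measured genes. Nfia was at 9.21 and 44.3 CPM in shMLL1 and at 19.7 and 30.1 CPM in shControl on days 0 and 7, a difference of 1.65 (1.41 to 1.89). In the BMP list Fst, follistatin, rose by 2.62 and the antagonist Grem1 fell by 2.87 on the log2 scale, and the shControl fall of Id2, a target of the pathway, was lost, at 11.8 and 19.5 CPM in shMLL1 and at 90.3 and 33.7 CPM in shControl. Of 9 cartilage genes 5 rose and 1 fell in shMLL1, and 4 rose and 3 fell in shControl, with medians of 2.82 and -0.09. Over all measured genes 16.9% rose and 14.4% fell in shMLL1, and 13.5% and 10.5% in shControl. All 4 shControl rises persisted. Comp, Sox5 and Col11a2 rose by 4.53, 4.43 and 2.82 in shMLL1 and rose in shControl too, whereas Cnmd fell in shControl by 2.02 on the log2 scale. The smooth muscle gene Acta2 fell by 2.96 on the log2 scale, whereas Lmod1 and Smtn rose by 2.85 and 2.13 in shMLL1 without a rise in shControl.

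**Figure D5:**
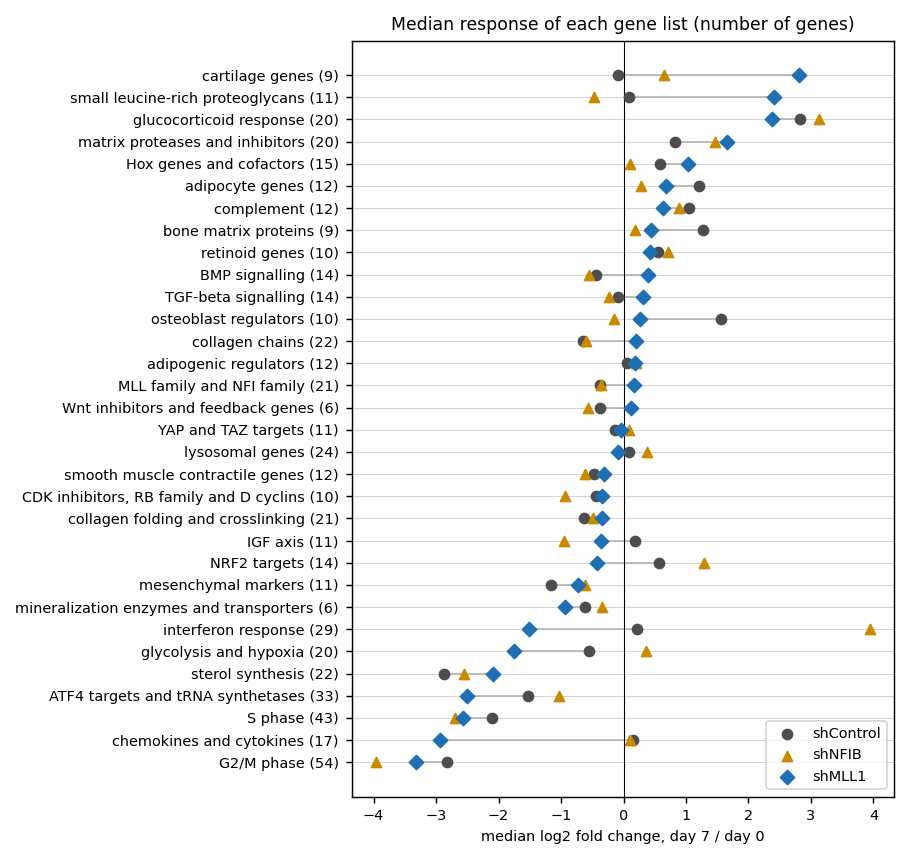
Median log2 fold change from day 0 to day 7 of each gene list with at least 5 measured genes, for shMLL1 (diamonds), shControl (circles) and shNFIB (triangles), with the number of genes in parentheses. The shMLL1 median lies far above that of shControl for small leucine-rich proteoglycans (2.41 against 0.09) and far below it for chemokines and cytokines (-2.94 against 0.15).

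The strand setting of the counting is not given in the sources used here, so genes that overlap others in exons are uncertain. Among the genes named above, exons of Adamts9, Aff2, Aldoa, Arhgap20, Aspn, Bcat1, Ccnd1, Ccnd2, Cdc20, Cdkn1a, Cldn19, Col15a1, Col5a1, Cxcl10, Ddit3, Dlx6, Dusp1, Fbn2, Fn1, Fst, Gapdh, Gas6, Glul, Gpd1, Hmgcs1, Igsf10, Irf7, Irs1 and Kctd19 overlap a gene on the other strand. So do those of Kmt2a, Kmt2c, Lipe, Lox, Nfia, Pdgfra, Penk, Phospho1, Pi15, Plk1, Ppp1r1b, Psmb8, Psph, Runx2, Serpinb9b, Sfrp2, Shroom3, Slc20a1, Slc20a2, Slc2a1, Smpd3, Smtn, Sned1, Sox5, Spry1, Tagln, Timp3, Twist2 and Ube2c. Exons of Amy1, Col3a1, Ctla2a, Ddit3, Glul, Hoxa9, Islr, Pdgfra, Phospho1, Pkm, Serpina3m, Sned1 and Spp1 overlap another annotated gene on the same strand.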

How the data were processed

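RNA-seq of 3 C3H10T1/2 lines on days 0 and 7 gave 6 libraries. The authors trimmed reads with Trimmomatic 0.39, aligned them to GRCm38 with HISAT2 2.2.1, dropped low mapping qualities and PCR duplicates with SAMtools 1.12, and deposited raw counts per gene from htseq-count 0.11.1. Removal of duplicates compresses the counts of very abundant genes, and reads of near-identical genes are lost by the quality filter. Here counts were scaled by TMM (edgeR 4.0.16 in R 4.3.3, prior count 0.125). Fold changes carry exact Clopper-Pearson 95% intervals, and differences between lines a normal approximation on the log scale, both covering counting error only. Genes were measured from 20 counts, and the floor for 0 was 3 counts a library. Calls were tested on simulated data: without variation beyond counting, 188 of 200 genes changed 4-fold in shMLL1 were called, and 0 of 15597 unchanged genes. With a coefficient of variation of 0.2 in that comparison these were 184 and 95. The intervals then covered the true fold change in 36.5% of genes and the true difference in 35.7%. Of the unchanged genes 61 entered a class of shMLL1 without the like in shControl. The fitted value of 0.281 is larger and was not simulated. Named were the hairpin targets, the 12 largest protein-coding rises and falls with 20 counts on both days, and members of gene lists. Up to 6 opposite genes in each direction were also named, and the 10 largest differences of each lost class and of each class without the like. Lost classes were ranked among protein-coding genes with 20 or more counts in both shControl libraries. Classes without the like were ranked among those with 20 or more in both shMLL1 libraries. Some genes that this rule names are not reported here. Members and lists were chosen with earlier results of these data known. Gene types, positions and exon overlaps came from a GENCODE annotation of GRCm38 and promoters from RefSeq (GRCm38.p6). DESeq2 1.42.0 size factors, library size, thinning, other count minimums and other call rules were alternatives. No p-value is given, since 1 library per condition allows no test across replicates.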

Additional observations from a re-analysis of the deposited data

Results flagged for a closer look

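The 13 genes that fell in shMLL1 and rose in shControl, and the 4 that did the reverse, stand out because each line moved the other way. With 1 library per line and day the difference was not tested. Given as the shMLL1 response minus the shControl response (log2), the differences were -6.61 for Oas3, -3.85 for Slfn2, -3.46 for Oas1g and -2.71 for Mx2, all interferon-stimulated genes. They were -6.21 for Igf1, -4.59 for Spry1, -4.36 for the chemokine Cxcl5 and -4.03 for Bmper, a secreted BMP modulator. Among the remaining falls they were -11 for Gm4767, -4.73 for Gm5456, -4.46 for 4930471E19Rik, -3.2 for Rpl30-ps10 and -2.8 for Exoc3l4. The rises differed by 7.59 for Penk, 6.8 for Cnmd, 4.65 for Cldn1 and 3.54 for Arhgap20. Pseudogenes such as Rpl30-ps10 share sequence with their parent genes, and their counts are uncertain.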

How the results depend on the processing

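The counts of rises, falls and persisted, lost and unmatched responses were recomputed under those other scalings, count minimums, depths, call rules and class definitions that bear on each, and 99 of 126 recomputed counts lay within 1.5 times the reported one. The recomputed counts follow in the order rises, falls, rises persisted, rises lost, falls persisted, falls lost, rises without the like and falls without the like. With the interval past 4-fold they were 913, 722, 357, 48, 287, 47, 196 and 161. With edgeR's exact test at an assumed coefficient of variation of 0.4 they were 851, 640, 277, 35, 178, 38, 183 and 160. Persisted rises numbered 2115 by the estimate alone and 2064 by the exact test at 0.1. With no demand on the difference, lost rises and falls and the responses without the like numbered 691, 499, 1228 and 1092, and with a difference past 4-fold 34, 31, 73 and 68. Lost rises beyond the between-line interval numbered 228 when no other size was asked for. These shifts follow from stricter or looser rules. Scalings without mitochondrial and ribosomal protein genes and the between-line interval were added after seeing the data. No named gene's called fold change turned sign under another scaling, depth or prior count. Of 2444 such recomputed values, 464 lay outside the gene's own counting interval, 384 of them with scaling by library size alone. No paired analysis was possible because shMLL1 had a single pair of days. A fit of line and day over all 6 libraries, which blocks the days by line, gave the between-line spread and no call. With 1 library for each line and day none could be left out. Counts of intermediate and opposite genes and of gaps were not recomputed. Depth limits genes near 20 counts, where a 2-fold change often cannot be called.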

Other observations

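Of 12 measured complement genes 4 rose in shMLL1 and 4 in shControl, where 1 fell, beside rises in 16.9% and 13.5% of all measured genes. C3, the central component, was at 262 and 1054 CPM in shMLL1 and at 609 and 2269.9 CPM in shControl on days 0 and 7, and C4b at 4.54 and 67.3 CPM in shMLL1 and at 10.6 and 329 CPM in shControl. Both ended lower in shMLL1 than in shControl. The decay-accelerating factor Cd55 fell in shControl by 4.89 on the log2 scale, a fall that was lost in shMLL1, at -1.12. Among retinoid genes Dhrs3, a retinaldehyde reductase, was at 10.5 and 247 CPM in shMLL1 and at 18.7 and 209 CPM in shControl, next to the Aldh1a rises, and the binding protein Crabp2 fell by 2.32 on the log2 scale.

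Lysosomal genes were mostly not called, as were 10411 of all 15166 measured genes. Of 24 measured lysosomal genes 2 rose and 2 fell in shMLL1, with a median log2 fold change of -0.09, and 1 rose and 1 fell in shControl. Over all measured genes 16.9% rose and 14.4% fell in shMLL1. Psap, prosaposin, was at 885 CPM on day 0 and 1839.98 CPM on day 7, and the protease Ctsl at 1696 CPM on day 0 and 714 CPM on day 7. Of 11 YAP and TAZ targets 4 fell and 2 rose in shMLL1, beside 14.4% and 16.9% of all measured genes. Ankrd1 had the largest fall of that list, at -6.61 (log2). Ccn1, a matricellular protein, was at 29.99 and 33.6 CPM in shMLL1 on days 0 and 7, and Ccn2 was lower on day 7, at 67.4 and 28.3 CPM. Of the Wnt inhibitors and feedback genes 6 of 17 were measured, and Notum alone rose, from 1.33 to 4.59 CPM, beside 16.9% of all measured genes. Postn, periostin, rose from 491 to 1227 CPM in shMLL1 and was at 509.96 and 671 CPM in shControl, and Tgfbr3, betaglycan, rose by 2.30 and 1.29 in these lines.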
